A study of Oryza sativa with 6 samples.

Results

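L-type lateral roots of rice were compared after 7 days of 50 mM NaCl and under control conditions, with 1 library on each side. The loci described are those with at least 50 scaled reads in at least 1 of these 2 libraries, which were 12904 of the 37938 loci listed; 135 of the 12904 carry no gene ID. Scaled reads are the reads of a locus, recovered from the deposited values and adjusted to a common library size. The plants were the cultivar IR29, which the series calls salinity sensitive, and mRNA was also sequenced from nodal roots and from S-type lateral roots under both treatments. All 6 groups carried the same genotype and were grown with 12 hours of day at 30 °C and 12 hours of night at 25 °C, and each group was 1 library. The labels do not say how many plants went into a library, and the root types are known here only by their labels. With 1 library a side there is no spread between replicates and no test of salt in L-type roots: the values describe these libraries, and the intervals given cover counting error only.

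Rice builds its root system from nodal roots that emerge from the stem base. These carry short, determinate S-type laterals and longer L-type laterals, which can branch again. Salt lowers the water potential around a root and brings sodium to it, and plants are known to respond through abscisic acid (ABA), through changes in water channels and ion transport, and through altered growth of laterals. The stated aim of the series was to identify genes of lateral root development under salinity.

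The L-type libraries held 3889244 reads under control and 3839177 under salt, within the range of 3839177 to 4249872 over all 6 libraries. At this nearly equal depth 22220 loci had a read under control and 23801 under salt. The counting intervals cover only the drawing of reads; copies made by PCR carry no molecular identifiers here, so reads need not be separate molecules. No label gives a batch or a date.

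Loci were called higher or lower under salt by size. The difference had to reach 2-fold, taken as log2(scaled reads + 1), the larger value had to reach 50 scaled reads, and the 95% exact conditional binomial interval of the ratio had to exclude 1. By this rule of size, higher loci numbered 1924 (14.9%) and lower loci 1820 (14.1%). The large differences leaned one way: 682 loci were at least 4-fold higher and 181 at least 4-fold lower, and at 8-fold the counts were 238 and 29. Across all 12904 loci the median log2 difference was -0.18, with quartiles of -0.71 and 0.49. With FPKM, which scales by length and depth, in place of scaled reads, 2097 loci were higher and 1235 lower, so the share of changed loci that were higher went from 51.4% to 62.9%. With a minimum of 200 scaled reads that share was 46.2%.

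The higher loci together went from 212554 to 745645 scaled reads, and from 5.96% to 21.0% of the library. The lower loci together went from 621693 to 237242 scaled reads, and from 17.4% to 6.68% of the library. Loci with few reads gave more of the higher calls. In the lowest quartile by mean level 25.0% of loci were higher and 17.2% lower, and in the top quartile 10.01% were higher and 13.4% lower. The lowest quartile held means of 25.5 to 78.1 scaled reads. A locus near the low end of that range reaches 50 in one library only if the other is far lower. Part of the calls in that quartile therefore follows from the minimum. Just under the minimum, 1013 loci had 40 to 50 scaled reads in their higher library, of which 23.9% passed the other conditions as higher and 12.5% as lower. Just over it, 804 loci had 50 to 60, with 20.1% higher and 14.6% lower.

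**Figure D1:**
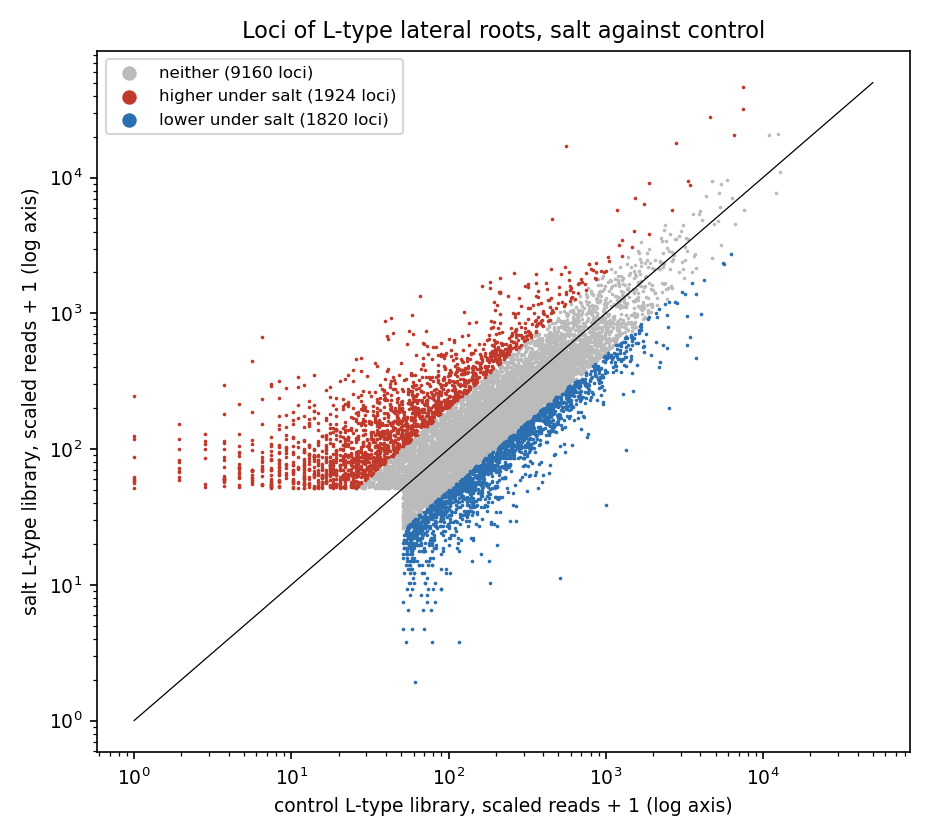
Scaled reads + 1 of 12904 loci in the control (horizontal, log axis) and salt (vertical, log axis) L-type libraries, 1 point per locus, with the line of equality. The 1924 loci higher under salt reach down to 0 reads under control, where 10 of them stand; no lower locus had 0 reads under salt.

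Loci higher under salt spanned less of the genome than the others. Spans were taken from the deposited coordinates, introns included, and some neighbouring gene IDs share the same start and end. A span therefore need not be that of the gene alone. The median span of the higher loci was 2506 bp, against 5022 bp for the lower loci and 4580 bp for the rest. The same order was seen in the top quartile by level, with medians of 2603, 5595 and 5030 bp. In the nodal comparison the medians were 3205 bp for higher loci, 3617 bp for lower loci and 4586 bp for the rest. In the S-type comparison they were 3638, 3630 and 4479 bp. Higher loci thus had a smaller median than the rest in each root type, and lower loci a larger one only in L-type roots. RNA quality values are not in the labels, and the part of locus length in the counts was not tested.

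No reference table here pairs the gene IDs with names, so IDs are printed for 4 loci, the largest folds with at least 200 scaled reads, 2 in each direction. The locus Os03g0184100 (IRGSP-1.0, chromosome 3, 4416654 to 4419091) had 0 scaled reads in the control L-type library and 244.4 under salt. That is at least 88.8-fold more when 3 reads are taken as the floor for the control, and the 95% counting interval of the ratio starts at 71.7. Nodal roots had 2.8 under control and 223.9 under salt, and S-type roots 3.5 and 189.0. Each of the 3 control libraries was therefore low and each of the 3 salt libraries high at this locus. In the authors' deposited table its FPKM in L-type roots went from 0 to 53.2 with a q-value of 0.0144.

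At Os06g0255400 (chromosome 6, 8069204 to 8069983) the L-type libraries went from 5.5 to 671.1 scaled reads, a ratio of 122 with a 95% counting interval of 55.7 to 333. Nodal roots had 66.1 and 195.1, and S-type roots 955.1 and 1436.4. The control L-type library was the lowest of the 6, and the salt L-type library stood between the nodal and the S-type libraries.

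Among lower loci, Os01g0322700 (chromosome 1, 12301586 to 12302618) went from 509.1 to 10.2 scaled reads, 50.0-fold lower with an interval of 27.7 to 100.7. Nodal roots went from 336.9 to 76.4 and S-type roots from 114.9 to 2.5, so every salt library was below its control. The locus Os06g0268600 (chromosome 6, 8939332 to 8948565) went from 1009.9 to 37.9 scaled reads, 26.6-fold lower with an interval of 19.5 to 37.3. The other control libraries had 88.1 (nodal) and 55.7 (S-type), so the control L-type library alone was high at this locus.

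A few loci took a larger share of the reads under salt, though a choice by salt reads favours loci that were higher there. The 10 loci with the most reads in the salt library held 6.30% of its reads and 2.01% of the control library's, and 6 of the 10 were higher by the rule and 0 lower. Of these 10 loci 6 were also among the 10 with the most control reads. In nodal roots 9 of them were higher and 0 lower, and in S-type roots 4 were higher and 1 lower. The first of them, at chromosome 1, 8546065 to 8546869, went from 7454.6 to 46275.3 scaled reads in L-type roots, a ratio of 6.21, and from 2205.6 to 17779.6 in nodal and from 22915.9 to 51908.0 in S-type roots. On a per-length scale, 36 of the 100 loci with the highest FPKM under salt were higher by the rule and 3 lower. Of the 100 with the highest FPKM under control, 11 were higher and 20 lower.

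The authors' deposited table tests the same pair of libraries and marks 9 of 18408 tested loci (0.0489%) as significant, with q-values of 0.0144 to 0.0487. All 9 were higher under salt, and each was at an FPKM of 0 under control and between 16.9 and 93.6 under salt. The recovered reads show 0 control L-type reads at all 9, and 55.5 to 244.4 scaled reads under salt. In nodal roots the salt library was above the control at all 9 and in S-type roots at 7.

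Gene groups are given as 41 lists of rice IDs with 384 entries, whose membership comes from general knowledge and was not checked against an annotation. Of the 384 IDs 372 are in the files and 232 were measured in L-type roots. Among these 232, 58 (25.0%) were higher and 40 (17.2%) lower, beside 14.9% and 14.1% of all loci. A list is described by its counts, its median log2 difference and the sum of its scaled reads, beside the median of -0.18 over all loci.

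Markers of green tissue were higher under salt. The list of shoot and light markers holds photosystem, light-harvesting and carbon fixation genes, which are typical of green tissue. Of its 25 IDs 11 were measured, 10 were higher and 0 lower under salt, with a median of 2.93. Summed over the 25 IDs, L-type roots went from 355.9 to 1904.0 scaled reads, a ratio of 5.35 (95% counting interval 4.80 to 5.98). Under control 3 of the 25 had no read, and under salt every one had at least 1. The member with the largest difference went from 2.8 to 113.8 scaled reads, and the member with the most reads under control went from 115.6 to 389.7. In nodal roots the sum went from 268.0 to 4557.5 with 14 of 15 measured members higher, and in S-type roots from 261.1 to 291.5 with 0 of 1 higher. The L-type and nodal salt libraries were thus high and the other 4 low. The 1 measured locus of the list for chlorophyll synthesis was also higher, from 27.5 to 104.6 scaled reads. Green tissue in the sample and transcription in the root cannot be told apart in these libraries, and the part of these genes in other results was not tested.

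**Figure D2:**
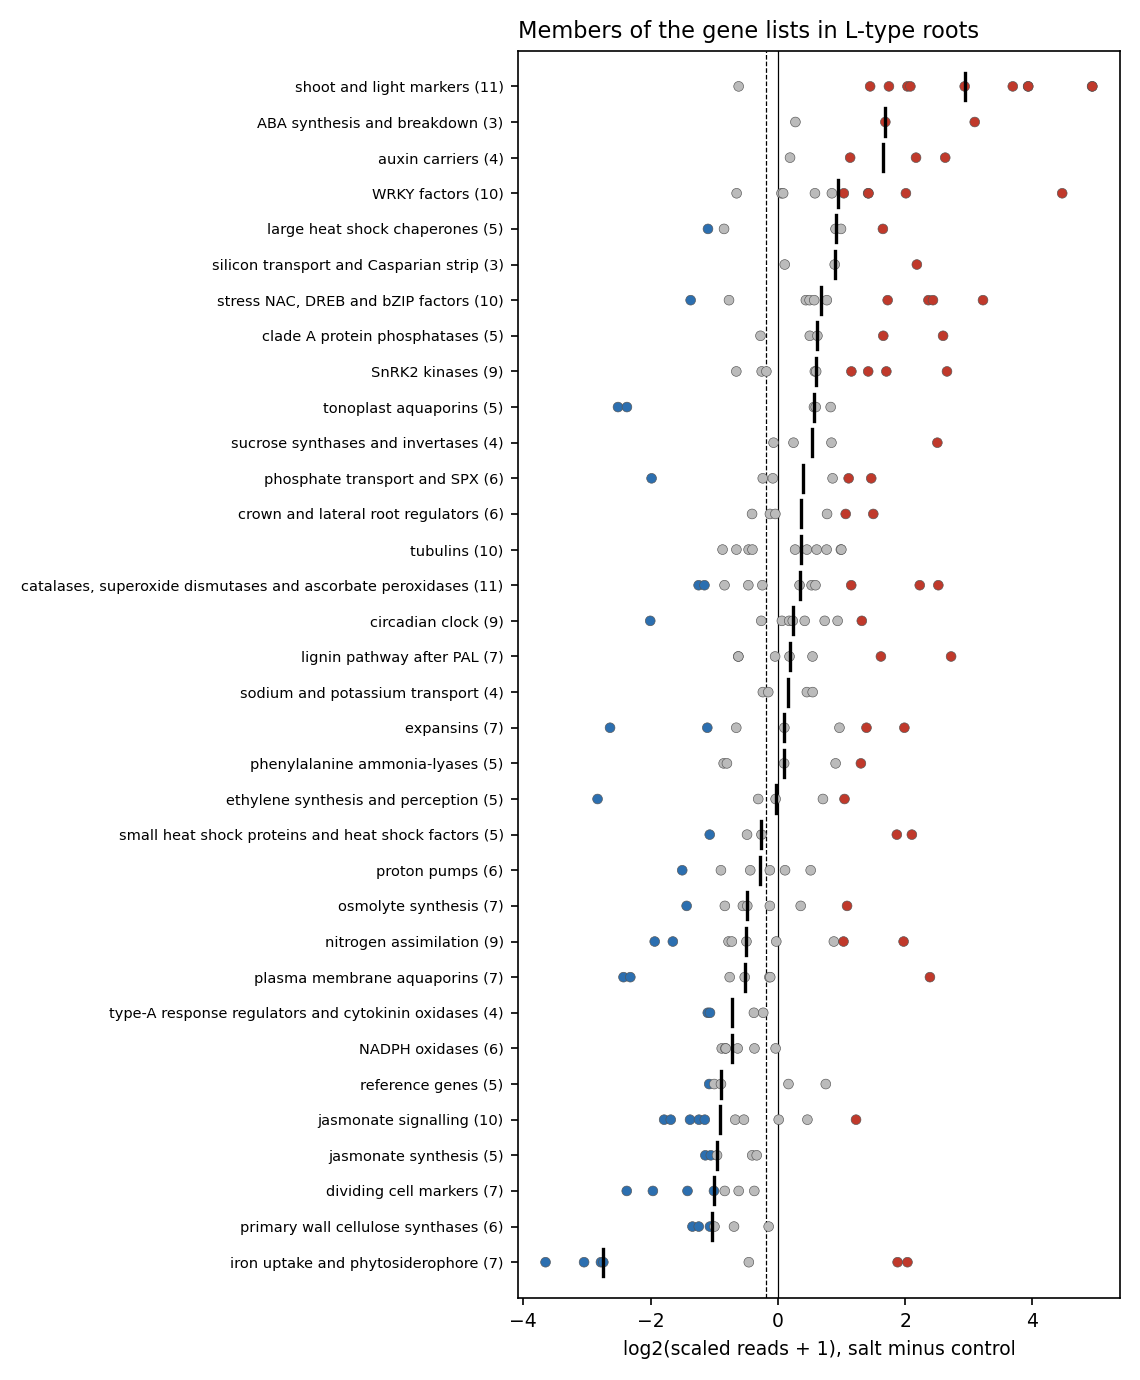
Log2(scaled reads + 1), salt minus control, of each measured member (1 point per locus) of the 34 lists with at least 3 measured members in L-type roots; the number measured is in brackets. Red points are higher and blue points lower by the rule of size, black ticks are list medians, and the dashed line is the median of all loci at -0.18; the shoot and light markers stand at the top (2.93) and iron uptake at the bottom (-2.74).

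Genes of ABA metabolism and signalling were mostly above the median of all loci. ABA is the hormone that plants make under water deficit, and its level is set by both synthesis and breakdown enzymes. Of the 7 listed synthesis and breakdown IDs 3 were measured, 2 were higher and 0 lower, with a median of 1.69. The larger difference was from 212.8 to 1822.5 scaled reads, a ratio of 8.56 (interval 7.47 to 9.86), and the other was from 88.1 to 286.0. The first of these loci went from 331.3 to 227.5 in nodal roots and from 1578.2 to 4256.2 in S-type roots. The salt L-type library thus stood above the control S-type and below the salt S-type library. The measured locus that did not pass the rule went from 67.9 to 82.4 in L-type roots. This list pools synthesis and breakdown enzymes, so its counts and median do not say which way ABA levels went.

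Downstream of ABA, the clade A protein phosphatases, which hold the pathway off until the receptors bind ABA, had 2 of 5 members higher and 0 lower (median 0.62). The larger of these differences was from 34.9 to 215.7 scaled reads. The SnRK2 kinases, which those phosphatases inhibit, had 4 of 9 higher and 0 lower (median 0.60). One kinase went from 192.6 to 1219.9 in L-type, from 59.7 to 425.3 in nodal and from 710.2 to 4350.1 in S-type roots, higher in all 3 root types. The other 3 higher kinases changed by 2.23 to 3.33-fold in L-type roots and did not meet the rule in the others. Only 1 of 6 dehydrin and late embryogenesis abundant proteins, which protect drying cells, was measured. It went from 481.6 to 1091.3 scaled reads in L-type roots. In nodal roots it was lower by the rule, from 474.5 to 231.1, and in S-type roots it went from 3222.6 to 5101.0, short of the rule.

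Stress-related transcription factors followed. Of the 10 measured NAC, DREB and bZIP factors, which include known regulators of drought and salt responses, 4 were higher and 1 lower (median 0.67). The higher members went from 328.4 to 1087.6, from 320.1 to 1653.1, from 360.5 to 1955.8 and from 7.3 to 76.8 scaled reads. The lower one went from 1810.7 to 699.8. WRKY factors, a plant family known from defence, had 5 of 10 measured members higher and 0 lower, with a median of 0.94. The largest difference was from 38.5 to 872.8, a ratio of 22.7 (interval 16.6 to 31.6). That locus went from 75.3 to 617.7 in nodal roots and from 548.9 to 287.8 in S-type roots. Summed, the WRKY list had 4698.2 and 7514.9 scaled reads in L-type roots, far under the 24534.7 and 24608.3 of the S-type libraries.

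Jasmonate genes lay on the lower side. Jasmonate is a lipid-derived hormone of wounding and defence that also slows root growth, and its repressors (the TIFY or JAZ proteins) are themselves induced by it. Of the 5 measured synthesis genes 2 were lower and 0 higher (median -0.96), and all 5 had fewer scaled reads under salt. Of the 10 signalling members, mostly TIFY repressors, 5 were lower and 1 higher (median -0.91). The signalling sum went from 7079.4 to 4240.2 scaled reads, 1.67-fold lower (interval 1.61 to 1.73). The member with the most control reads among those that were lower went from 1664.8 to 750.7, and the 1 higher member from 233.0 to 547.0. In nodal roots 7 of 9 measured signalling members were lower and in S-type roots 4 of 10, with 0 higher in either.

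Other hormone lists were small. Auxin carriers, the membrane proteins that set the direction of auxin flow in growing and branching roots, had 3 of 4 members higher and 0 lower (median 1.65). They went from 52.3 to 328.6, from 18.3 to 86.1 and from 164.2 to 361.9 scaled reads. The list sum went from 311.0 to 861.7 in L-type roots, from 1742.1 to 1734.4 in nodal and from 475.8 to 240.8 in S-type roots. The control L-type library was thus the lowest but 1 of the 6 in this sum. Type-A response regulators and cytokinin oxidases, which damp cytokinin signals, had 2 of 4 lower and 0 higher (median -0.72, or -0.38 with a minimum of 10 scaled reads). Ethylene synthesis and perception had 1 of 5 higher and 1 lower; the lower one went from 368.7 to 50.9 scaled reads. Crown and lateral root regulators had 2 of 6 higher and 0 lower, from 34.9 to 74.0 and from 27.5 to 79.6. Their median of 0.37 was 0.78 with library totals, 0.85 with median-of-ratios size factors and 0.92 with a minimum of 10 scaled reads.

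Growth and cell wall genes were partly lower. Dividing cell markers, which are cyclin, kinase and replication genes of cells in the cell cycle, had 4 of 7 members lower and 0 higher (median -1.004). Their sum went from 1168.6 to 520.2 scaled reads, 2.25-fold lower (interval 2.03 to 2.49). The locus with the largest difference went from 325.6 to 62.0 in L-type, from 487.4 to 171.7 in nodal and from 62.7 to 17.3 in S-type roots. In whole roots, fewer cells of a type and less RNA per cell cannot be told apart. Cellulose synthases of the primary wall, laid down by growing cells, had 3 of 6 members lower and 0 higher (median -1.03), and their sum went from 7561.9 to 3604.3. The same sum went from 16287.2 to 6681.2 in nodal and from 5021.4 to 2528.3 in S-type roots.

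Other wall lists did not lean one way. Of the 7 measured expansins, which loosen walls, 2 were higher and 2 lower. Their differences ran from 137.6 to 21.3 scaled reads at one end and from 15.6 to 64.8 at the other. Tubulins, the subunits of microtubules, had 0 of 10 members past the rule, with differences of -0.87 to 0.997. In S-type roots 8 of the 10 tubulins were lower. Secondary wall cellulose synthases, which mark xylem and fibres, had 1 of 2 lower, from 140.3 to 52.8. Lignin genes after phenylalanine ammonia-lyase had 2 of 7 higher and 0 lower, from 79.8 to 247.1 and from 11.9 to 84.2. The ammonia-lyases themselves, the entry to phenylpropanoids, had 1 of 5 higher; the member with the most reads went from 10930.1 to 20499.2, a ratio of 1.88, short of the rule.

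**Figure D3:**
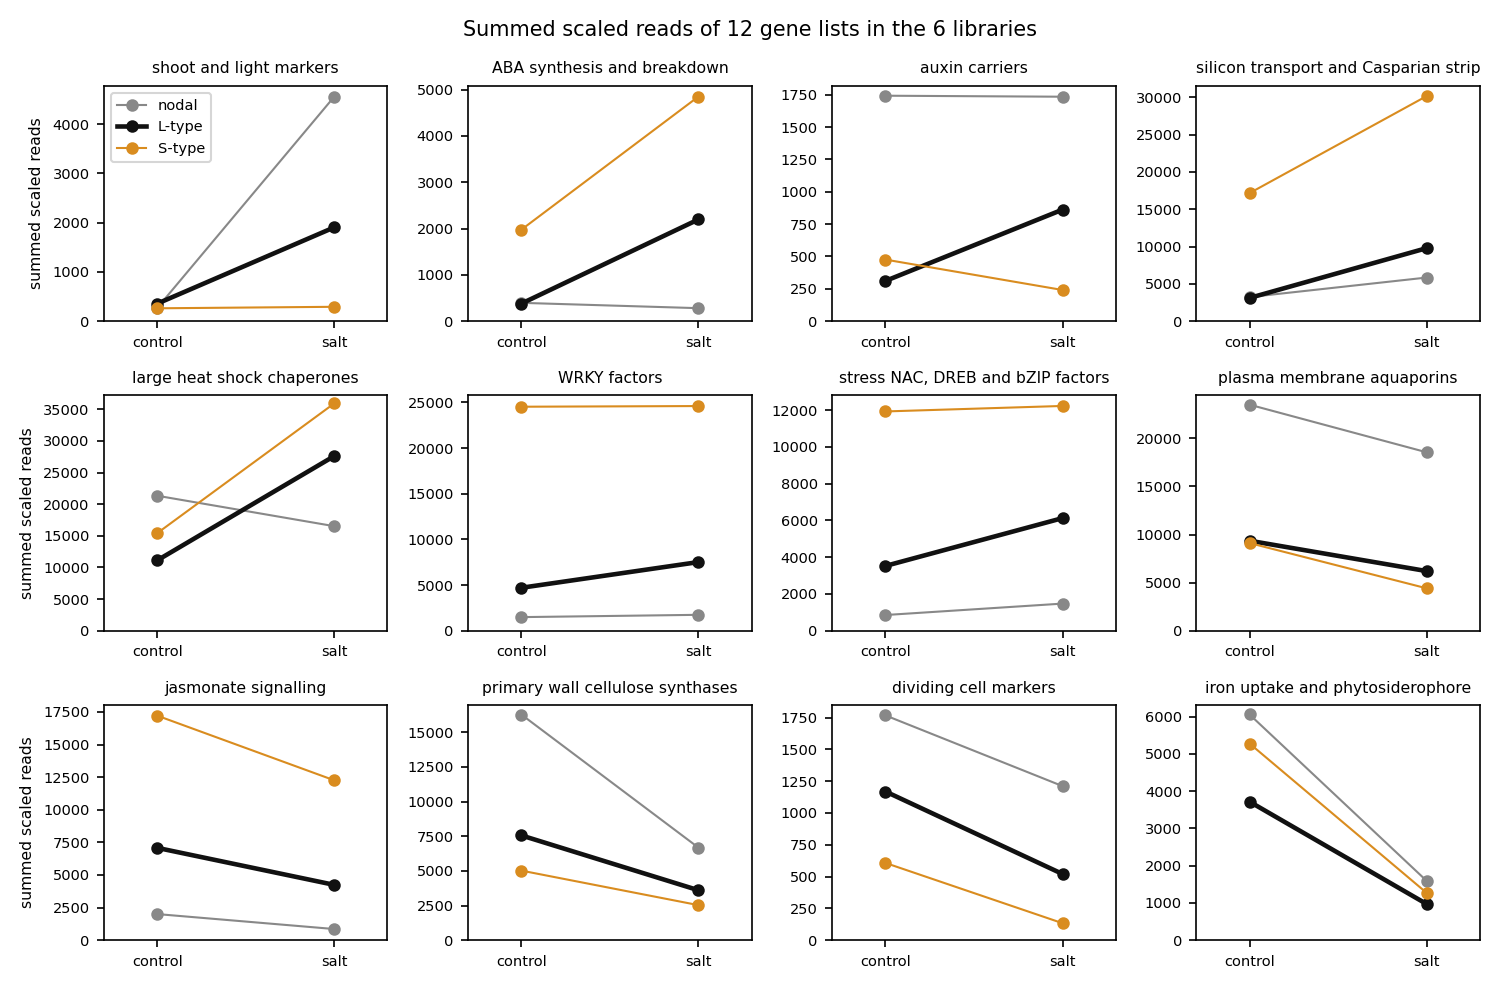
Summed scaled reads (vertical axis from 0) of 12 gene lists under control and salt in nodal (grey), L-type (black) and S-type (orange) libraries, 1 library per point. The auxin carriers go from 311.0 to 861.7 in L-type roots while S-type roots go from 475.8 to 240.8. The sum of the iron uptake and phytosiderophore list goes down in each root type, in L-type roots from 3717.7 to 971.0.

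Water and ion transport showed few differences outside the aquaporins. Plasma membrane aquaporins, the channels for water entry, had 2 of 7 members lower and 1 higher (median -0.52). The lower ones went from 2166.6 to 402.6, a 5.38-fold difference (interval 4.86 to 5.97), and from 696.2 to 138.8. The higher one went from 132.1 to 696.0, and in S-type roots the same locus went from 215.8 to 14.8. Tonoplast aquaporins, which serve the vacuole, had 2 of 5 lower, from 606.3 to 105.5 and from 468.7 to 89.8, and the other 3 lay between 0.57 and 0.83 on the log2 scale. Of 12 sodium and potassium transport IDs only 4 were measured and 0 passed the rule, with differences of -0.24 to 0.55. Among 6 proton pumps 1 was lower, from 954.0 to 336.0. The list for silicon transport and the Casparian strip, the barrier layer of the root, had 1 of 3 higher, from 1541.9 to 7007.7, a ratio of 4.54 (interval 4.31 to 4.79). It went from 7735.7 to 12778.5 in S-type and from 2190.9 to 4254.5 in nodal roots.

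Measured members of the iron uptake and phytosiderophore list were mostly lower, with a median of -2.74. That median was -1.60 with library totals and -0.61 with a minimum of 10 scaled reads, where the primary wall cellulose synthases (-1.03) lay below it. Rice takes up iron both as the ion and as a complex with phytosiderophores, and the list holds transporters, synthesis enzymes and regulators of both routes. The counts and the sum do not tell these kinds of gene apart, so they are not a measure of the transporters. Of the 7 measured members 4 were lower and 2 higher. The lower ones went from 2520.6 to 199.9, from 244.0 to 28.7, from 393.5 to 56.5 and from 185.3 to 26.8 scaled reads. All 4 were lower in nodal and S-type roots too. The 2 higher ones went from 31.2 to 117.6 and from 81.6 to 337.8, and the second did not pass the rule in the other root types. The first was lower there, from 366.2 to 135.8 in nodal and from 865.7 to 311.2 in S-type roots. The sum went from 3717.7 to 971.0 scaled reads, 3.83-fold lower (interval 3.58 to 4.10), and 1 locus held 2520.6 of the control sum.

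Other nutrient lists were mixed. Nitrogen assimilation had 2 of 9 higher and 2 lower, the largest of them from 372.4 to 1467.1 and from 629.2 to 163.8. Phosphate transport and SPX genes, which sense and carry phosphate, had 2 of 6 higher and 1 lower, the lower one from 2313.3 to 584.1. Of the 8 nitrate and ammonium uptake IDs 1 was measured and it did not pass the rule. Among 4 sucrose synthases and invertases 1 was higher, from 39.4 to 228.6 (list median 0.54, or 0.25 with a minimum of 10 scaled reads). Neither of the 2 measured fermentation genes and neither of the 2 measured pathogenesis-related proteins passed.

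Chaperone and redox lists differed by member. The large heat shock chaperones, which refold proteins, went from 11111.7 to 27604.1 scaled reads in sum, and 1 of 5 was higher and 1 lower. The higher one went from 6583.2 to 20659.3 in L-type, from 7861.1 to 25069.0 in S-type and from 12527.7 to 12414.7 in nodal roots. Small heat shock proteins and heat shock factors had 2 of 5 higher and 1 lower. Catalases, superoxide dismutases and ascorbate peroxidases, which remove reactive oxygen, had 3 of 11 higher and 2 lower; the largest difference was from 85.3 to 494.3 and a second from 41.3 to 197.2. The 6 measured NADPH oxidases, which make reactive oxygen, all had fewer scaled reads under salt (median -0.73) and 0 passed the rule. The osmolyte synthesis list had 1 of 7 higher, from 33.0 to 71.3, and 1 lower, from 3758.9 to 1391.2. Whether the higher member codes for a synthesis enzyme was not checked.

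The remaining lists were reference genes, clock genes and diterpenoid synthesis genes. Of the 5 reference genes, often taken as steady, 1 was lower (from 861.3 to 407.3) and the median was -0.89, under that of all loci. The circadian clock list had 1 of 9 higher and 1 lower. The lower clock gene went from 1459.4 to 362.8 in L-type, from 916.0 to 248.2 in nodal and from 564.0 to 139.6 in S-type roots, and the higher one from 212.8 to 532.2, from 58.7 to 544.0 and from 136.9 to 315.0. Both were past the rule in all 3 root types. The labels do not give the hour of sampling, and its part in these values was not tested. None of the 15 labdane-related diterpenoid IDs was measured.

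The salt difference in L-type roots was then set against the contrast of the other 2 root types under control, which uses libraries outside the L-type pair. Loci at least 4-fold higher in control S-type than in control nodal roots numbered 1392, and 36.1% of them were higher and 11.4% lower under salt in L-type roots (median 0.44). Loci at least 4-fold higher in nodal roots numbered 564, with 17.0% higher and 25.4% lower (median -0.39). Among the other 10948 loci 12.1% were higher and 13.9% lower (median -0.23). The first class, 10.8% of the loci, held 26.1% of the loci higher under salt. Its summed scaled reads were 155491 in control nodal, 465869 in control L-type, 606611 in salt L-type and 1407030 in control S-type roots.

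Finer bins showed the same course on one side only. From the loci up to 2-fold higher in S-type than in nodal roots to the 304 loci at least 16-fold higher in S-type roots, the share higher under salt went from 11.9% to 48.7% and the median from -0.13 to 0.90. On the nodal side the share lower was 16.5% for up to 2-fold and 24.8% for 2 to 4-fold. The 66 loci more than 16-fold higher in nodal roots had 28.8% higher and 22.7% lower. The makeup of the root samples by cell type was not measured.

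**Figure D4:**
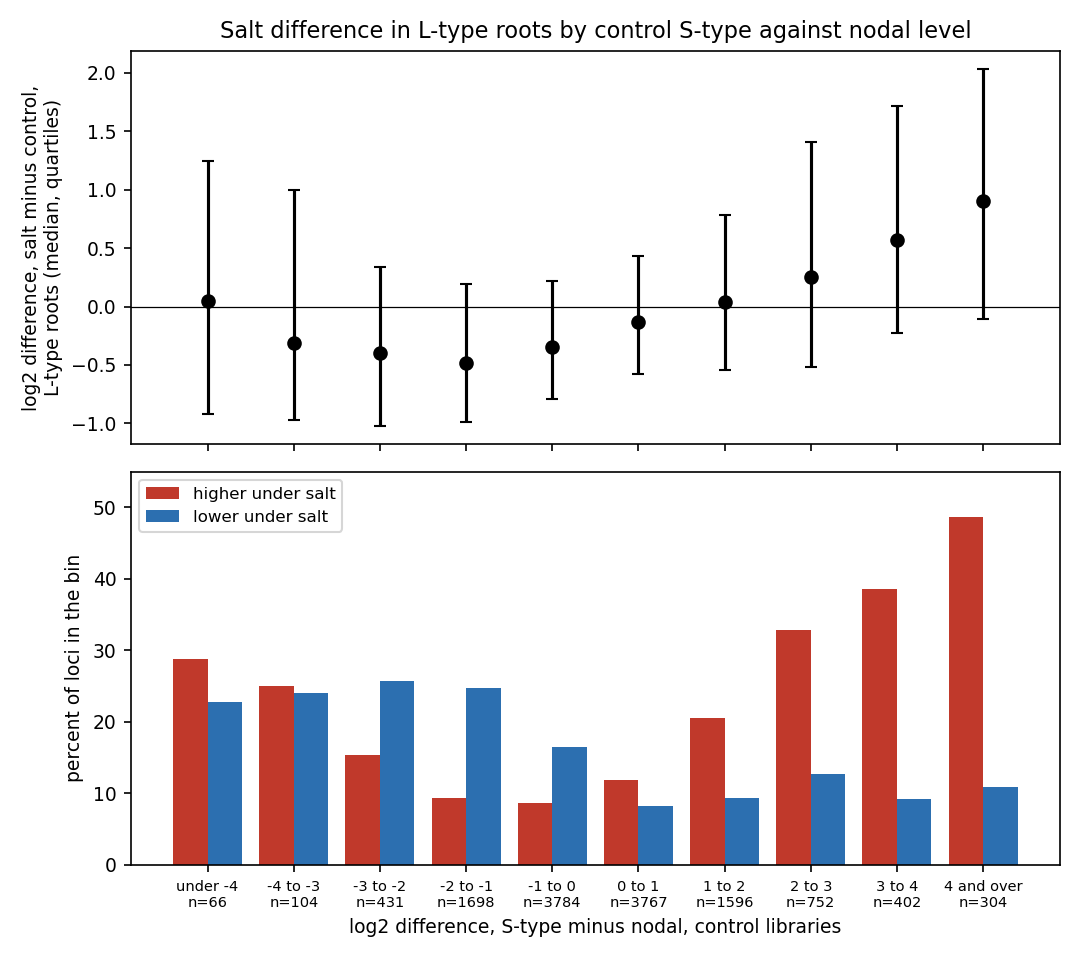
Salt minus control in L-type roots for 12904 loci binned by the log2 difference between S-type and nodal control libraries: median with quartiles (above) and percent of loci higher (red) and lower (blue) by the rule of size (below). The share higher goes from 11.9% in the bin from 0 to 1 to 48.7% in the last bin, which holds 304 loci.

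For each changed locus the 6 libraries were also put in order. Among the 1924 higher loci the control L-type library was the lowest of the 6 at 937 (48.7%), and the salt L-type library was the highest at 515 (26.8%). The highest was the salt S-type library at 535 and the salt nodal library at 456. Among the 1820 lower loci the control L-type library was the highest at 906 (49.8%), and the salt L-type library the lowest at 628 (34.5%). Among the 9160 loci that did not change, the control L-type library was the lowest at 8.5% and the highest at 22.7%, and the salt L-type library the lowest at 11.8% and the highest at 7.8%. The control library was therefore at the end of the order more often than the salt library in both groups of loci. With scaling by library totals the gap among higher loci was small, 829 with the control library lowest against 785 with the salt library highest. Among lower loci it was wider, 1115 with the control library highest against 342 with the salt library lowest.

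**Figure D5:**
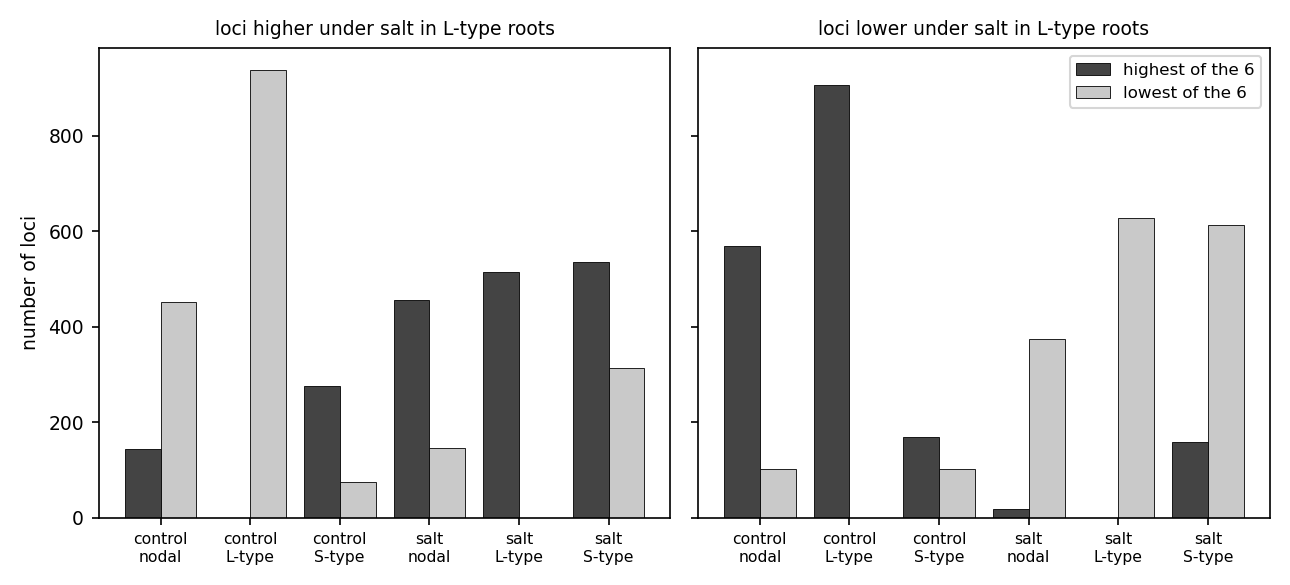
Number of loci (vertical axis) at which each of the 6 libraries was the highest (dark) or the lowest (light), for the 1924 loci higher (left) and the 1820 lower (right) under salt in L-type roots. The control L-type library was lowest at 937 of the higher loci and highest at 906 of the lower loci. The choice of loci favours both L-type libraries at these ends and leaves their other bars empty. With library totals the control library was lowest at 829 higher loci and the salt library highest at 785.

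Salt comparisons of the other root types share no library with the L-type pair. By the same rule 1715 of 13053 loci (13.1%) were higher and 1579 (12.1%) lower in nodal roots. In S-type roots 582 of 12216 (4.76%) were higher and 1576 (12.9%) lower. Of the 1924 loci higher in L-type roots 691 were also higher in nodal roots, that is 35.9% of the L-type list and 40.3% of the nodal one. Only 170 were higher in S-type roots, 8.84% of the L-type and 29.2% of the S-type list. Of the 1924, 222 (11.5%) were lower in S-type roots, near the 10.4% of all 12904 loci that were lower there. Over all 12904 loci 11.1% were higher in nodal and 3.12% in S-type roots.

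Lower loci were shared more evenly. Of the 1820 lower in L-type roots, 483 were lower in nodal roots (26.5% of the L-type and 30.6% of the nodal list) and 318 in S-type roots (17.5% and 20.2%). Over all 12904 loci these shares were 9.56% and 10.4%. Opposite calls numbered 12 in nodal (0.66%) and 32 in S-type roots (1.76%), beside 11.1% and 3.12% of all loci higher there. In all 3 root types 76 loci were higher and 142 lower. The loci higher in L-type roots had a median log2 difference of 1.68 there, 0.75 in nodal and 0.04 in S-type roots, and the lower loci had -1.31, -0.63 and -0.38. Across loci measured in both, the log2 differences of L-type roots correlated at 0.55 with those of nodal roots (11645 loci) and at 0.14 with those of S-type roots (11167 loci).

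Whether the salt difference of L-type roots departed from that of the other root types was tested across all 6 libraries. The limma fit, whose 1 residual degree of freedom is the disagreement between nodal and S-type roots, called 0 of 18936 loci (0%) at an adjusted p under 0.05, with 582 at an unadjusted p under 0.05. The edgeR quasi-likelihood test called 0 (512 unadjusted), and the DESeq2 Wald test called 1 (588 unadjusted). That locus was Os06g0255400, whose salt difference was 5.62 ± 0.65 (SE) above that of the other root types in the limma fit (adjusted p = 0.945; DESeq2 adjusted p = 0.00379). No difference between root types named above passed the limma test.

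The changed loci were not spread evenly over the chromosomes. On chromosome 11, 10.8% of 595 loci were higher and 20.0% lower, and on chromosome 12, 11.2% of 669 were higher and 16.7% lower. On the other chromosomes 14.5% to 16.6% were higher and 12.4% to 15.2% lower. In nodal roots chromosome 11 had 15.7% higher and 11.9% lower, and in S-type roots 6.48% and 14.3%.

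Some neighbouring loci met the rule of size in the same direction. Runs of at least 4 consecutive measured loci that all changed one way numbered 8 for higher and 7 for lower loci. With 14.9% of all loci higher and 14.1% lower, some runs arise without any link between neighbours. How many was not worked out, so the runs are described by position only. The longest held 6 loci on chromosome 2, from 31791942 to 31912105, with log2 differences of 1.78 to 3.32 and a sum that went from 1379.6 to 6503.2 scaled reads. Of these 6 loci 3 were also higher in nodal and 2 in S-type roots. Next by number and median were runs of 4 on chromosome 10, from 20389644 to 20620523 (121.1 to 803.4 scaled reads), and on chromosome 5, from 21509426 to 21560040 (298.1 to 1536.5).

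The longest lower runs held 5 loci each. One lay on chromosome 5, from 3876042 to 4121262, and went from 1785.9 to 751.6 scaled reads; the other lay on chromosome 1, from 30850664 to 30927648, and went from 3943.3 to 1787.3. In the first, 2 loci were lower in nodal and 2 in S-type roots, and in the second, 1 and 0. A lower run of 4 on chromosome 7, from 14106592 to 14489304, went from 6402.5 to 1074.6 in L-type roots, from 1020.7 to 432.5 in nodal and from 1717.5 to 507.6 in S-type roots. The control L-type library was the high one there. Reads of near-identical neighbours could be split by the authors' counting, so single loci of a run are uncertain.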

How the data were processed

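Total RNA was taken from roots with a column kit and made into strand-specific mRNA libraries with inserts of 200 bp, per the labels' protocols. The submitters' processing notes name TopHat2 2.0.11, Bowtie, Trimmomatic 0.32, Cuffdiff 2.2.1 and Cufflinks 2.2.1, with build IRGSP-1.0. The signal deposited by the authors for each locus is reads over a size factor of its library. Dividing it by the smallest step of the library returned whole reads (tolerance 0.01) for 99.897% to 99.982% of values above 0. The authors also deposited FPKM values with p-values and q-values for 15 pairs of groups, in the layout of Cuffdiff per the file headers. No source used here states how reads of near-identical copies were counted.

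Reads were scaled by TMM factors (edgeR 4.0.16) to the mean library of 3993894.5 reads. Loci without a gene ID, 0.37% to 0.58% of reads, stayed out of library sizes and tests. Pairs of libraries were described by the rule of size; adding 1 before the logarithm understates differences of loci with few reads. The 95% intervals are exact conditional binomial (Clopper-Pearson), and 3 reads per library is the floor for 0 reads. The single test was limma-trend (limma 3.58.1, R 4.3.3) on log2(scaled reads + 1), for loci that reached 10 reads in 2 libraries, with terms for root type, salt and L-type by salt; it was two-sided and Benjamini-Hochberg adjusted. The alternatives edgeR and DESeq2 1.42.0 used the recovered reads. Scripts were tested on simulated data. For the limma and edgeR fits the simulated nodal and S-type roots had no salt difference. That simulation lacks the disagreement between these root types, so it does not bear on how many loci the real fits could call.

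Members and lists were chosen with earlier results of these data known. Of 36773 gene IDs 1 matched the reference table (assembly ASM3414082v1). The naming rule for that case took the largest folds among loci that met the rule of size with 200 scaled reads or more, 2 per direction, and gave lists by counts, medians and sums; values of single list members are printed without ID and were picked after they were seen. The most-read locus and the runs are given by coordinates, from the deposited files with 1 added to each start. Chromosome shares, spans, level quartiles and finer bins were added after the data were seen.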

Additional observations from a re-analysis of the deposited data

Results flagged for a closer look

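Some loci met the rule of size in opposite directions in L-type and another root type. Higher in L-type and lower in S-type roots were 222 loci, and lower in L-type and higher in S-type roots were 32. Against nodal roots these counts were 75 and 12. Among the lists, WRKY factors had 5 members higher in L-type and 3 lower in S-type roots, and lignin genes after phenylalanine ammonia-lyase 2 higher in L-type and 7 lower in S-type roots. Auxin carriers had 3 higher in L-type and 2 lower in S-type roots, and type-A response regulators with cytokinin oxidases 2 lower in L-type and 2 higher in S-type roots. These pairs of directions were not tested against each other with replicates. The limma fit over all root types called 0 loci. The counts of a list in L-type and S-type roots are not always of the same members. A WRKY factor lower in S-type roots (796.1 to 174.2 scaled reads) did not pass the rule in L-type roots. Neither did an auxin carrier lower in S-type roots (65.0 to 4.9).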

How the results depend on the processing

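No paired analysis was possible because the groups share only replicate number 1; root type is a term of the limma fit. With 1 library a group, the L-type comparison has no replicate to leave out. The counts of 1924 higher and 1820 lower loci were 737 and 857 with a minimum of 200 scaled reads and 682 and 181 at 4-fold; a minimum of 10 scaled reads gave 3621 higher. Under library totals, median-of-ratios size factors, the authors' size factors, pseudocount 10, no condition on the interval, FPKM and, chosen after seeing the data, TMM factors over all loci, both counts were within 1.5 times of these. The DESeq2 Wald test called 1 locus where limma called 0. In the class higher in S-type roots 27.3% of loci were higher with 2-fold classes and 38.8% with library totals, against 36.1%; in the class higher in nodal roots 10.3% were higher with 2-fold classes. Library totals gave 785 higher loci with salt L-type as the highest library and 342 lower loci with it as the lowest. Runs of at least 3 loci numbered 46 higher and 44 lower. The median of the ethylene list was 0.0386 with median-of-ratios factors and 0.0126 with a minimum of 10 scaled reads, against -0.04; of 170 list medians under the alternatives, 2 changed sign, 10 moved by 0.25 or more and 158 by less. The 10 were those of iron uptake (-1.60 with library totals, -0.61 with a minimum of 10 scaled reads, -2.41 with pseudocount 10, against -2.74), crown and lateral root regulators (0.78 to 0.92 against 0.37), type-A regulators (-0.38 against -0.72), sucrose enzymes (0.25 against 0.54) and shoot and light markers (2.24 and 2.41 against 2.93). The causes of these shifts were not tested. Loci under 50 scaled reads were not described, and the L-type pair alone gives counting error only; the limma fit adds the disagreement of the other root types.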
